A study of Mus musculus with 5 samples.

Results

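Among spiral ganglion neurons from mice with floxed Runx1 (CKO), 116 neurons combined high RNA of Calb2, the gene of the calcium buffer calretinin, with Runx1 RNA near 0. They are described here against the 211 control neurons that met the same limits. The 116 were chosen from 884 CKO neurons, and the whole data set holds 1954 neurons. Levels are means over cells of the UMIs (unique molecular identifiers, 1 per captured RNA molecule) of a gene per 10000 UMIs in the cell. The limits were under 1 for Dupd1, a type II marker, under 3 for Lypd1, a type Ic marker, at least 150 for Calb2 and under 0.5 for Runx1. The values that chose the cells are therefore a description and not a result. The CKO cochleae carried bhlhb5-Cre/+, Ai14/+ and Runx1F/F and gave 3 samples, and the control cochleae carried bhlhb5-Cre/+ and Ai14/+ and gave 2. Both groups, of both sexes and 30 to 33 days old, thus had the Cre transgene and its tdTomato reporter, by which neurons were sorted, and in CKO mice Runx1 was removed embryonically. The deleted stretch of Runx1 is not named in the labels, and the assay reads 3' ends, so Runx1 counts do not check the deletion.

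Type I spiral ganglion neurons carry sound signals from inner hair cells to the brain and fall into the subtypes Ia, Ib and Ic. Calb2 marks type Ia, Calb1 marks type Ib, and Lypd1 and the transcription factor Pou4f1 mark type Ic, with gradation between neighbouring subtypes. Runx1 is a DNA-binding transcription factor that acts with the partner Cbfb, and in control neurons its RNA is found mainly in types Ib and Ic. The question here is how far CKO neurons with the Calb2 and Runx1 levels of type Ia resemble native type Ia neurons in the rest of their RNA.

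The files give the genotype of a cell and not its sample. Each genotype was therefore 1 pool, and no test between genotypes could be made. Intervals are exact 95% intervals and cover counting error only. Cell barcodes run alphabetically and start over several times, which splits the cells into 5 stretches. Stretches 1, 3 and 4 held CKO cells, and stretches 2 and 5 held control cells. There were also 5 samples, but no source used here ties a stretch to a library. Stretch values are given to show the spread, and 1 barcode occurs in both genotypes. The 116 CKO neurons held 5818656 UMIs, with a median of 49428 per cell and a range of 12939 to 78825. The 211 control neurons held 10036337 UMIs, with a median of 49580 and a range of 14002 to 81960. The median number of detected genes was 7096 in CKO and 7143 in control.

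The label "without Runx1 RNA" holds for part of the cells. Of the 116 CKO neurons, 66 had 0 Runx1 UMIs, 36 had 1, 11 had 2 and 3 had 3. Of the 211 control neurons, 136 had 0, 52 had 1, 21 had 2, 1 had 3 and 1 had 4. Near the limits, the highest Runx1 level inside was 0.461 and the lowest outside was 0.503 in CKO, against 0.488 and 0.506 in control. The lowest Calb2 level inside was 153 and the highest outside 143 in CKO, against 156 and 142 in control. No cell lay near the limits for Dupd1 or Lypd1. The highest Lypd1 level inside was 0.469 in CKO and 0.642 in control.

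Neurons of this kind were a minority of the CKO Calb2-high neurons. Of 384 CKO Calb2-high neurons, 116 (30.2%, 25.7 to 35.1) lay under the Runx1 limit, against 211 of 242 in control (87.2%, 82.3 to 91.1). By stretch the CKO counts were 34 of 167 (20.4%) in stretch 1, 63 of 198 (31.8%) in stretch 3 and 19 of 19 in stretch 4. The control counts were 43 of 52 (82.7%) in stretch 2 and 168 of 190 (88.4%) in stretch 5. CKO stretch 4 thus stood with the control stretches, and without it the CKO share was 26.6%.

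As a share of all neurons with Dupd1 under 1, the CKO neurons were 15.8% (116 of 732, 13.3 to 18.7) and their control counterparts 22.2% (211 of 951, 19.6 to 24.96). The stretch shares were 11.4%, 20.9% and 14.2% in CKO stretches 1, 3 and 4, against 10.5% and 31.1% in control stretches 2 and 5. The stretches of the 2 genotypes overlapped, and without stretch 5 the control share was 10.5%, below the CKO share. Calb2-high neurons at or above the Runx1 limit made up 36.6% of these neurons in CKO (268 of 732, 33.1 to 40.2) and 3.26% in control (31 of 951, 2.23 to 4.60). Their stretch shares were 44.8%, 44.9% and 0% in CKO stretches 1, 3 and 4, where 0 of 134 allows up to 2.72% by the exact interval. In control stretches 2 and 5 they were 2.20% and 4.07%. The sort and the recovery of cells can set such shares, and their part was not tested.

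**Figure D1:**
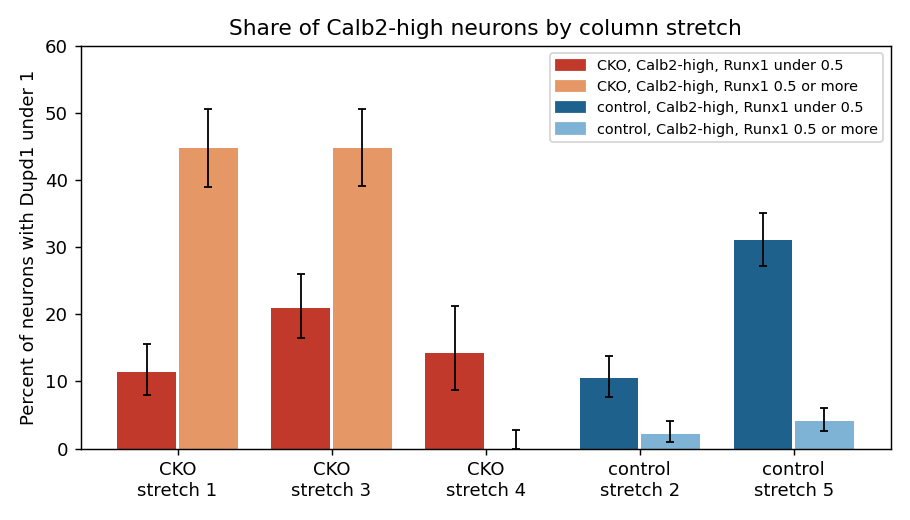
Share of neurons with Dupd1 under 1 UMI per 10000 (y axis, percent) that were Calb2-high with Runx1 under 0.5 (dark bars) or at 0.5 or more (light bars), by column stretch, with CKO in red and control in blue and exact 95% intervals as lines. CKO stretches 1 and 3 held many Calb2-high neurons with Runx1, at 44.8% and 44.9%, whereas CKO stretch 4 held 0 and control stretches 2 and 5 held 2.20% and 4.07%.

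The type Ia markers Rxrg, B3gat1 and Pcdh20 were present in the CKO neurons, with stretch ranges that overlapped those of control. Rxrg, the gene of a retinoid X receptor, averaged 0.700 in CKO neurons, with 0.611, 0.790 and 0.564 in stretches 1, 3 and 4. It averaged 0.497 in control neurons, with 0.623 and 0.465 in stretches 2 and 5. The ranges overlapped, and the log2 ratio with 0.1 added to each mean was 0.42 (0.15 without stretch 5). At least 1 Rxrg UMI was held by 103 of 116 CKO and 169 of 211 control neurons. B3gat1, a glucuronyltransferase that makes the HNK-1 glycan, averaged 1.87 in CKO (1.54, 2.14 and 1.54 by stretch) and 2.07 in control (2.14 and 2.05), a log2 value of -0.14, and every neuron of both pools held a B3gat1 UMI. Pcdh20, a protocadherin of cell adhesion, averaged 0.374 in CKO (0.215, 0.358 and 0.714) and 0.459 in control (0.289 and 0.502), a log2 value of -0.24 that was 0.28 without stretch 5. Calb2 itself, which the choice of cells used, averaged 264 in CKO (quartiles 226 and 300) and 250 in control (210 and 284).

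Markers of the other subtypes were low in both pools. Calb1, the gene of the calcium buffer calbindin, averaged 0.319 in CKO (0.283, 0.376 and 0.198 by stretch) and 0.219 in control (0.533 and 0.139), against 1.31 in control neurons with Lypd1 under 3 and Calb2 under 150, the type Ib range. All 3 CKO stretches lay between the control stretches. The titin gene Ttn averaged 0.0601 in CKO and 0.0443 in control, against 1.27 in that type Ib range. Pou4f1 averaged 0.00181 in CKO, from 1 UMI, and 0.00497 in control, from 5 UMIs, against 1.17 in control neurons with Lypd1 at 3 or more, the type Ic range. Grm8, a metabotropic glutamate receptor gene, was at 0 UMIs in both pools, against 0.817 in the type Ic range. Of the type II markers, Prph, Th, Etv4 and Plk5 were at 0 in the CKO neurons, and Ngfr, a neurotrophin receptor that type I neurons also held, averaged 0.919 in CKO and 0.988 in control. Genes of all spiral ganglion neurons stood side by side. The neurofilament gene Nefh averaged 68.6 in CKO and 66.7 in control, and the transcription factor genes Gata3 (0.593 in CKO and 0.601 in control), Isl1 (3.93 in CKO and 3.89 in control) and Prox1 (0.597 in CKO and 0.588 in control) differed by at most 0.02 on the log2 scale.

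Few genes lay apart between the CKO neurons and their control counterparts. Of 3610 genes with a mean of 0.5 or more in either pool, and without the 4 genes of the choice, 4 were at least 2-fold higher in CKO (0.111%) and 3 at least 2-fold lower (0.0831%). The median log2 value over these genes was -0.01, with quartiles of -0.09 and 0.08. The control stretches 2 and 5 of the same kind of cell, 43 against 168 neurons, differed by 2-fold in 8 genes one way and 13 the other, out of 3693. CKO stretches 1 and 3, 34 against 63 neurons, differed in 13 and 15 genes. These pools hold fewer cells, so their means carry more counting error. Against the type Ib range of control neurons, 22 genes were at least 2-fold higher and 49 lower in the CKO neurons, out of 3797, and against the type Ic range 52 and 108 out of 3830.

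Of the 7 genes, Rps2, the gene of a small ribosomal subunit protein, had the largest log2 value with 0.1 added to each mean, while the plain ratio of means was slightly larger for Ceacam10. It averaged 1.63 in CKO neurons, with 2.13, 1.34 and 1.71 in stretches 1, 3 and 4, and 0.534 in control neurons, with 0.857 and 0.451 in stretches 2 and 5. All CKO stretches lay above both control stretches, and the log2 value was 1.45 (0.85 without stretch 5), with a ratio of UMI rates of 3.27 (2.94 to 3.65). Ribosomal protein genes have near-identical copies between which reads can be split, so this value is uncertain. Ceacam10, of a family of adhesion glycoproteins, averaged 0.718 in CKO (0.839, 0.715 and 0.513) and 0.231 in control (0.463 and 0.172), a log2 value of 1.30 (0.54 without stretch 5). Its RNA went with glial RNA. In neurons with under 5 UMIs per 10000 of Schwann and satellite glia markers, 43 CKO and 62 control, Ceacam10 averaged 0.00532 in CKO and 0 in control. The microRNA gene Mir6236 averaged 3.28 in CKO (4.58, 2.16 and 4.64) and 1.55 in control (3.01 and 1.18), with overlapping stretches. It was 0.12 on the log2 scale without stretch 5.

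Lgals1 and Pygm were lower in the CKO neurons. Lgals1, the gene of the lectin galectin-1, averaged 0.349 in CKO, with 0.398, 0.365 and 0.209 by stretch, and 0.850 in control, with 0.894 and 0.838. All CKO stretches lay below both control stretches, the log2 value was -1.08 and the ratio of UMI rates 0.418 (0.358 to 0.487). An Lgals1 UMI was held by 63 of 116 CKO neurons and 168 of 211 control neurons. In the glia-poor neurons it averaged 0.423 in CKO and 0.800 in control. Pygm, the muscle form of glycogen phosphorylase, averaged 0.224 in CKO (0.642, 0.0540 and 0.0421) and 0.529 in control (0.684 and 0.489), a log2 value of -0.96. CKO stretch 1 lay within the control range and stretches 3 and 4 far below it, and the log2 value was -2.06 without stretch 1 and -0.26 without stretch 3.

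The remaining 2 of the 7 genes were sex-linked. Xist, expressed in female cells, averaged 1.56 in CKO (1.18, 1.35 and 2.95) and 0.667 in control (1.44 and 0.469). The Y-linked Ddx3y averaged 0.253 in CKO (0.194, 0.362 and 0) and 0.571 in control (0.460 and 0.599). The pools thus differed in sex-linked RNA, and its part in the other values was not tested.

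The same 5 genes were also compared between the genotypes in the other neurons. Rps2 had log2 values of 1.02 and 1.07 between CKO and control in the type Ib and type Ic ranges, Ceacam10 1.46 and 1.58, and Mir6236 1.099 and 0.94. Lgals1 had -1.11 in the type Ib range and -0.14 in the type Ic range, and Pygm -0.53 and -0.01, where its control means were 0.226 and 0.0233.

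Smaller differences made up the rest of the 12 highest and 12 lowest genes by log2 value. On the higher side were Ubb, which encodes polyubiquitin (3.88 in CKO and 1.998 in control, log2 0.92), Ptgds, the prostaglandin D2 synthase (1.44 in CKO and 0.750 in control, log2 0.86), Eid2 (0.644 in CKO and 0.332 in control, log2 0.78) and Hrsp12, an enamine deaminase gene (1.45 in CKO and 0.901 in control, log2 0.63). In the glia-poor neurons Ptgds averaged 0.0104 in CKO and 0.00349 in control. Ubb was split among the CKO stretches, with 4.67, 4.49 and 0.435, against 2.53 and 1.86 in control. Pttg1, the splicing factor gene Cwc22, Chordc1, Akirin2 and Nrsn1 had log2 values from 0.48 to 0.53. On the lower side were the Schwann cell gene Prx (0.419 in CKO and 0.714 in control, log2 -0.65), the ribosomal gene Rpl37 (0.891 in CKO and 1.36 in control, log2 -0.56) and Cox7b, a subunit gene of cytochrome c oxidase (20.3 in CKO and 29.4 in control, log2 -0.54). The lipid droplet gene Plin2, the fatty acid desaturase gene Scd1, Cap1, Srcin1, the myelin gene Mbp, Oaz1 and Sez6 had log2 values from -0.53 to -0.46. In 5 of the 12 higher genes all CKO stretches lay above both control stretches, and in 6 of the 12 lower genes all lay below. Over the 3610 genes this was so for 6.43% and 8.5%, and the 24 genes were chosen for their size. The 5 were Rps2, Ceacam10, Ptgds, Chordc1 and Akirin2, and the 6 were Lgals1, Prx, Cox7b, Scd1, Srcin1 and Sez6.

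**Figure D2:**
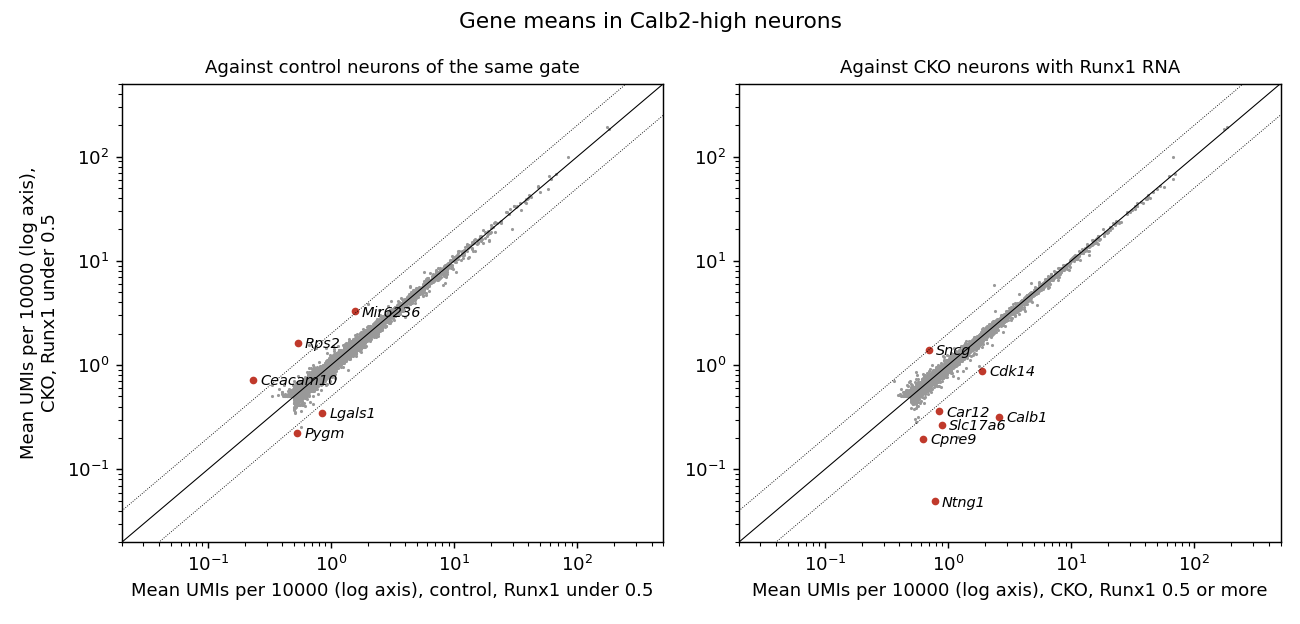
Mean UMIs per 10000 of each gene (points, log axes) at a mean of 0.5 or more in either pool: the 116 CKO Calb2-high neurons with Runx1 under 0.5 (y axis) against the 211 control neurons of the same limits (left, x axis) and the 268 CKO Calb2-high neurons with Runx1 at 0.5 or more (right, x axis). The solid line marks equal means and the dotted lines 2-fold; red points with names are genes past 2-fold, without predicted and sex-linked genes, 5 on the left and 7 on the right, with Calb1 and Ntng1 farthest below the line on the right.

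RNA of glia was a little lower beside the CKO neurons. The sum over 14 Schwann and satellite glia markers averaged 19.8 in CKO (19.8, 21.2 and 15.2 by stretch) and 24.3 in control (26.0 and 23.8), with all CKO stretches below both control stretches. Schwann cell markers, of which 7 of 10 reached a mean of 0.2, had a median log2 value of -0.23, with 1 of the 7 at least 1.5-fold lower and 0 higher. Satellite glia markers had -0.15 over 4 of 7. The defining glial factor gene Sox10 averaged 0.0699 in CKO and 0.108 in control. Of the glial genes named above, the log2 value of Prx in the glia-poor neurons was 0.05. Endothelial and erythrocyte markers had no measured gene, the 1 measured macrophage marker, Csf1r, was at 0, and the summed hair cell markers averaged 0.0117 in CKO and 0.00520 in control. The part of glial RNA in the results above was not tested beyond these values.

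The genes that set the control subtypes apart were compared next. For each of the ranges Ia, Ib and Ic, 50 genes were taken from control cells alone, those with the highest level against the higher of the other 2 ranges. The type Ia genes had a median log2 value of -0.10 in the CKO neurons against their control counterparts, with 13 of 50 above 0 and 37 below, beside a median of -0.01 over all 3610 genes. All 50 reached a mean of 0.5 in either pool, and 1 was at least 1.5-fold higher and 2 lower in CKO, where over all 3610 genes 11 were higher (0.305%) and 8 lower (0.222%). For scale, the same 50 genes had medians of -0.71 in the type Ib range and -1.18 in the type Ic range of control, against the same control Calb2-high neurons. The type Ia set was chosen on control Calb2-high neurons that include these 211, for being higher there than in the other ranges. The medians of those ranges were thus bound to lie below 0 and serve as a scale only. That choice can also favour values below 0 in any other pool, the CKO neurons included. With the set from every second control cell and the other control cells as reference, the CKO median was -0.08. The CKO neurons with Runx1 at 0.5 or more had -0.15, with 36 of 50 below 0. The CKO median of -0.10 was not stable across stretches, at 0.08 without stretch 5. Control stretch 2 itself had a median of -0.17 against its pool, and CKO stretches 1, 3 and 4 had -0.05, -0.10 and -0.11.

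Within the type Ia set, the genes farthest above control were Hrsp12, Rxrg, the muscle-associated Sh3bgr (1.13 in CKO and 0.922 in control, log2 0.27), Arhgdig (0.850 in CKO and 0.690 in control, log2 0.27), and Pygl, the liver form of glycogen phosphorylase (1.31 in CKO and 1.09 in control, log2 0.25). Farthest below were Pygm, Plin2, the extracellular protease gene Adamts5 (0.652 in CKO and 0.925 in control, log2 -0.45), Rab4a of endosome recycling (0.819 in CKO and 1.04 in control, log2 -0.31) and the vesicle protein gene Syngr1 (1.32 in CKO and 1.61 in control, log2 -0.27). For Adamts5, Rab4a, Syngr1 and Plin2, control stretch 2 lay below control stretch 5, at 0.692 and 0.984 for Adamts5, and the CKO stretches of Adamts5 lay at 0.654, 0.588 and 0.864.

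The type Ib and type Ic genes had medians of -0.07 and -0.03 in the CKO neurons against control. Of the 32 type Ib genes at a mean of 0.5 in either pool, 0 were at least 1.5-fold higher and 1 lower, Lgals1. Over all 3610 genes 0.305% were higher and 0.222% lower, so counts near 0 say little for sets of this size. All 50 had a median of 0.45 in the type Ib range of control, by which they were chosen, so it gives a scale only. The annexin gene Anxa5 (3.37 in CKO and 2.44 in control, log2 0.45), Calb1 (log2 0.39) and Basp1, a growth cone protein gene (0.551 in CKO and 0.397 in control, log2 0.39), were highest. Without the 2 neurons of each pool with the most Calb1, Calb1 averaged 0.188 in CKO and 0.175 in control. Lgals1 and the collagen gene Col27a1 (0.282 in CKO and 0.444 in control, log2 -0.51) were lowest. Only 15 of the 50 type Ic genes reached a mean of 0.5 in either pool, and of these 0 were 1.5-fold higher or lower. That count also says little at those shares. The median of all 50 in the type Ic range of control, by which they were chosen, was 1.33. Slc17a6 and Pla2g7, which encodes a lipase of platelet-activating factor (0.939 in CKO and 0.666 in control, log2 0.44), were highest. Cpne9, a copine gene (0.196 in CKO and 0.316 in control, log2 -0.49), and the chromatin organiser gene Satb1 (0.209 in CKO and 0.300 in control, log2 -0.37) were lowest. Control stretch 2 had 0.635 for Cpne9, whereas control stretch 5 had 0.234 and the CKO stretches had 0.140, 0.212 and 0.243.

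**Figure D3:**
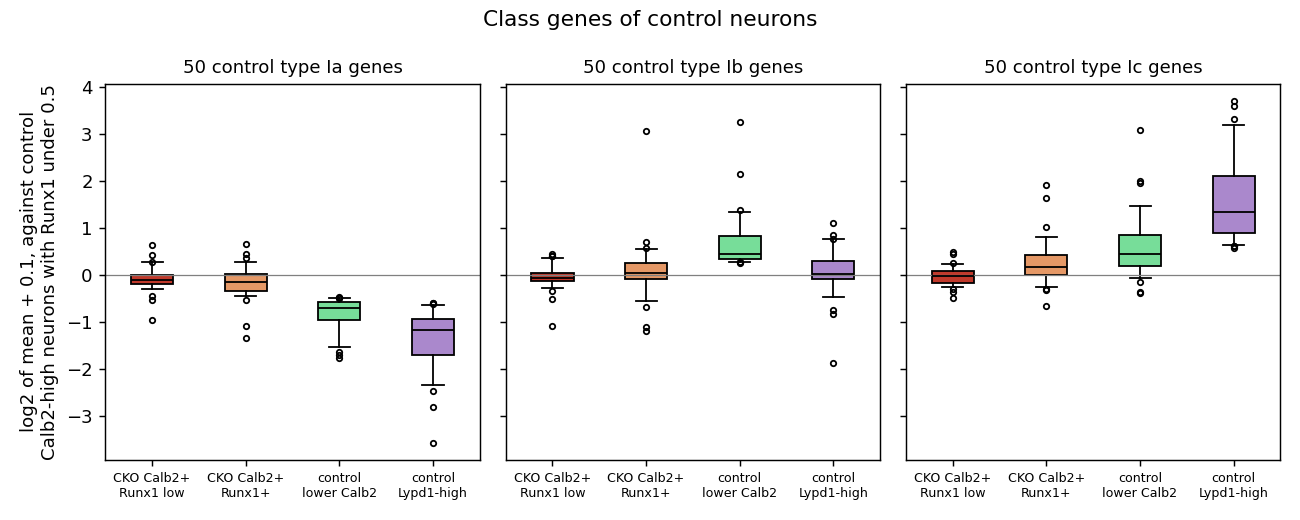
Log2 values of the 50 genes of each control subtype set (mean plus 0.1) against the 211 control Calb2-high neurons with Runx1 under 0.5, for CKO Calb2-high neurons with Runx1 under 0.5 and at 0.5 or more and for control neurons of the type Ib range (lower Calb2) and type Ic range (Lypd1-high). Boxes are quartiles with the median as a line, whiskers span the 5th to 95th percentile and circles are genes beyond; the CKO neurons with Runx1 under 0.5 have medians of -0.10, -0.07 and -0.03 and the narrowest boxes.

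Gene groups for the working of these neurons had small log2 values against control, with most group medians below 0. Over the 6410 genes with a mean of 0.2 or more in either pool, 19 were at least 1.5-fold higher in CKO (0.296%) and 28 lower (0.437%), with a median log2 value of -0.02. Of 16 potassium channel genes, which shape firing, 1 was 1.5-fold higher and 0 lower, with a median of -0.07. The 1 was Kcns3, a silent subunit gene (0.320 in CKO and 0.151 in control, log2 0.75), whose CKO stretches of 0.600, 0.247 and 0.0612 overlapped the control stretches of 0.295 and 0.114. Kcna1, the gene of a low-threshold channel subunit, averaged 14.8 in CKO and 17.1 in control (log2 -0.20). Of 8 sodium and HCN channel genes 0 passed 1.5-fold (median -0.10), and Scn8a, of the main nodal sodium channel, averaged 5.11 in CKO and 5.51 in control. Among 5 calcium channel genes (0.05) Cacna1a averaged 0.417 in CKO and 0.368 in control. Among 6 glutamate receptor genes (-0.12) Gria3 averaged 1.70 in CKO and 1.88 in control, and among 5 receptor genes for GABA, glycine and acetylcholine (-0.08) Chrnb2 had a log2 value of -0.32.

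Synaptic genes also had small log2 values, but several group medians lay below the -0.02 of all 6410 genes. Of 26 synaptic vesicle and release genes 1 was at least 1.5-fold higher, and 0 lower, with a median of -0.05. The 1 was Slc17a6, at 0.268 in CKO (0.449, 0.214 and 0.122) and 0.162 in control (0.215 and 0.148), with overlapping stretches. The main vesicular glutamate transporter gene Slc17a7 averaged 8.33 in CKO and 9.86 in control (log2 -0.24). The 9 postsynaptic scaffold genes had a median of -0.19 (-0.32 to -0.08 with 1 stretch left out). Among them Homer2 averaged 0.409 in CKO and 0.540 in control (log2 -0.33). The 22 synaptic adhesion genes had -0.11 (-0.18 to -0.06 with 1 stretch left out). The 6 cadherin genes at that level had -0.20, which was 0.01 without 1 stretch. The 12 axon guidance genes had -0.17 (-0.25 to -0.08 with 1 stretch left out), with the receptor gene Epha4 at 1.52 in CKO and 1.93 in control (log2 -0.32). The scaffold, adhesion and axon guidance medians thus stayed below 0 whichever stretch was left out. This was not particular to them, since the median of all genes did so too (-0.04 to -0.006). So did those of the potassium channel (-0.14 to -0.05), glutamate receptor (-0.158 to -0.055) and vesicle genes (-0.16 to -0.01), among other groups. The 10 calcium buffer and sensor genes had 0.05, with the sensor gene Cabp1 at 4.16 in CKO and 3.49 in control (log2 0.25). In these groups other than the vesicle genes 0 members passed 1.5-fold. Over all 6410 genes only 0.296% were higher and 0.437% lower, so a count of 0 says little for groups this small.

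The partner of Runx1 was also near control. Cbfb averaged 0.203 in CKO and 0.219 in control (log2 -0.07), and Cbfa2t3, a corepressor gene of the Runx family list, 0.182 in CKO and 0.229 in control. Sensory neuron transcription factor genes (17 at that level) had a median of -0.07, sodium pump genes (5) -0.09 and granin and prohormone genes (7) -0.01. Cytoskeleton genes (17) had -0.03 and neurotrophin and GDNF receptor genes (5) -0.09. In each of these groups 0 passed 1.5-fold, which says little at the shares over all 6410 genes, 0.296% higher and 0.437% lower. Oxidative phosphorylation genes (31) had 0.04 and ribosomal protein genes (31) 0.04, where Rps2 was 1.5-fold higher and Rpl37 lower. Immediate early and heat shock genes (6) had 0.09, with the chaperone gene Hspa5 at 3.66 in CKO and 2.88 in control (log2 0.34), and axon injury genes (3) had -0.32, with Sox11 at 0.506 in CKO and 0.663 in control (log2 -0.33).

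The CKO neurons differed in a few genes from the 268 CKO neurons that shared their Calb2 range but held Runx1 at 0.5 or more. Of 3571 genes, 2 were at least 2-fold higher in the neurons without Runx1 (0.0560%) and 7 at least 2-fold lower (0.196%). Cells were split by Runx1 itself, so Runx1 is left out. The 7 were Calb1, Ntng1, which encodes a netrin-G axonal adhesion protein, Slc17a6, the gene of a vesicular glutamate transporter, Cpne9, the carbonic anhydrase gene Car12, the kinase gene Cdk14 and the predicted gene 1700026D08Rik. The 2 were Sncg, the gene of gamma-synuclein, and the predicted gene Gm1821.

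Calb1 averaged 0.319 in the CKO neurons without Runx1 (0.283, 0.376 and 0.198 in stretches 1, 3 and 4) and 2.58 in those with Runx1 (2.75 and 2.42 in stretches 1 and 3). Ntng1 averaged 0.0485 without Runx1 (0.0161, 0.0727 and 0.0259) and 0.778 with Runx1 (0.764 and 0.792). Slc17a6 averaged 0.268 without Runx1 (0.449, 0.214 and 0.122) and 0.892 with Runx1 (1.09 and 0.699). For all 3 genes the neurons without Runx1 lay below those with Runx1 within stretch 1 and within stretch 3. The log2 values were -2.68, -2.56 and -1.43, and the ratios of UMI rates were 0.124 (0.106 to 0.143) for Calb1, 0.0618 (0.0405 to 0.0905) for Ntng1 and 0.318 (0.269 to 0.374) for Slc17a6. Cpne9 averaged 0.196 without and 0.629 with Runx1 (log2 -1.30), Car12 0.361 without and 0.843 with Runx1 (log2 -1.03) and Cdk14 0.877 without and 1.88 with Runx1 (log2 -1.02). Sncg averaged 1.40 without and 0.694 with Runx1 (log2 0.92), but within stretch 1 it had 0.440 without and 0.399 with Runx1. Rxrg averaged 0.700 without and 0.364 with Runx1 (log2 0.79), and the neurons without Runx1 were above those with Runx1 in both stretches, with 0.611 without and 0.307 with Runx1 in stretch 1 and 0.790 without and 0.420 with Runx1 in stretch 3. The defining type Ic marker Pou4f1 had 1 UMI in the 116 neurons without Runx1 and averaged 0.114 in those with Runx1.

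The subtype genes were also set against the CKO neurons with Runx1. In the CKO neurons without Runx1 the type Ia genes had a median log2 value of 0.04, the type Ib genes -0.07 and the type Ic genes -0.20. Of the type Ic genes 43 of 50 were below 0, and the median over all 3571 genes was -0.01. The split was by Runx1, whose RNA in control is found mainly in types Ib and Ic. Lower type Ib and Ic genes without Runx1 can follow from that split, so these medians describe it and add no support. Of the 18 that reached a mean of 0.5 in either pool, 4 were at least 1.5-fold lower without Runx1 (Elmo1, Slc17a6, Cpne9 and Cdk14) and 1 higher (Sncg), where over all 3571 genes 4 were higher (0.112%) and 13 lower (0.364%). Over the 6317 genes with a mean of 0.2 or more in either pool, 15 were at least 1.5-fold higher without Runx1 (0.237%) and 31 lower (0.491%). Among the functional groups, the lower genes were 2 of 15 potassium channel genes at that mean (Kcns3, at 0.320 without and 0.569 with Runx1, and Kcnip4, at 0.879 without and 1.33 with), 2 of 25 vesicle genes (Slc17a6 and Sv2b, at 0.757 without and 1.21 with) and 2 of 22 synaptic adhesion genes (Ntng1 and Tenm3). They also included 1 of 10 calcium buffer genes, Calb1, and 1 of 7 granin and prohormone genes, the convertase gene Pcsk2. Of 12 neuron markers, Rbfox3 was 1.5-fold lower. Against the 211 control neurons, the CKO neurons with Runx1 had 10 of 3624 genes at least 2-fold higher (0.276%) and 5 lower (0.138%). Their type Ic genes had a median of 0.18 against control, and of the 18 at a mean of 0.5 in either pool 4 were at least 1.5-fold higher and 1 lower, where 27 of all 3624 were higher (0.745%) and 18 lower (0.497%).

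Control Calb2-high neurons were split at the same Runx1 limit, 211 neurons under it and 31 at or above it. Without against with Runx1, the type Ia genes had a median log2 value of 0.12 in control. The type Ib genes had -0.24, with 41 of 50 below 0, and the type Ic genes -0.04, with 29 below. The set that lay lowest was thus type Ib in control and type Ic in CKO. Of 3694 genes, 2 were at least 2-fold higher (0.0541%) and 6 lower (0.162%) in the neurons without Runx1. Calb1, Ntng1 and Slc17a6 were in both lists of lower genes, 3 of the 7 in CKO (42.9%) and 3 of the 6 in control. In control, Slc17a6 averaged 0.162 without and 1.08 with Runx1, Ntng1 0.0297 without and 0.525 with, and Calb1 0.219 without and 0.722 with. The other 4 of the CKO list did not reach 2-fold in control, with log2 values without against with Runx1 of -0.46 for Cpne9, -0.08 for Car12, -0.64 for Cdk14 and 0.25 for 1700026D08Rik. The other 3 in control were Btbd9, a gene of the BTB domain family (1.04 without and 4.77 with Runx1), Crym and Tenm3. Btbd9 averaged 0.908 in CKO neurons without and 0.920 in CKO neurons with Runx1. Sncg was 2-fold higher without Runx1 in both genotypes, in CKO only just (1.40 without and 0.694 with). Htra1, a serine protease gene, was only just 2-fold higher in control (0.684 without and 0.339 with). Leaving out CKO stretch 1 or 4 took the CKO count of 2-fold higher genes to 0.

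**Figure D4:**
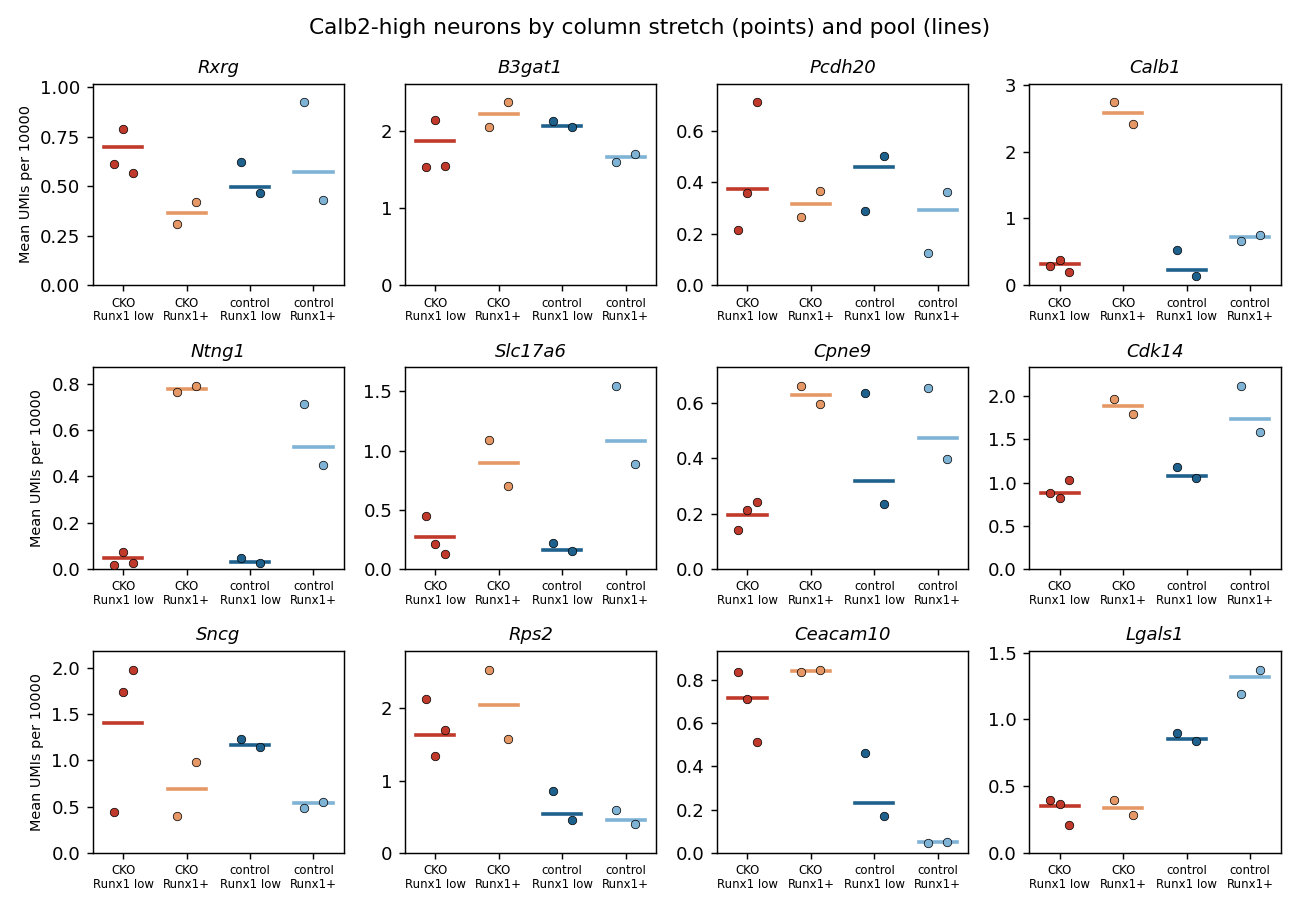
Mean UMIs per 10000 (y axes, from 0) of 12 genes in Calb2-high neurons with Runx1 under 0.5 (Runx1 low) or at 0.5 or more (Runx1+), in CKO and control; points are column stretches in ascending order and lines are pools, and CKO stretch 4 had no cell with Runx1 at 0.5 or more. Calb1, Ntng1 and Slc17a6 were low without Runx1 in both genotypes, and without Runx1 the pooled means of Rps2 and Ceacam10 were higher and that of Lgals1 lower in CKO than in control. Within control, the neurons without Runx1 also differed from those with it, by a log2 value of 1.16 for Ceacam10 and -0.58 for Lgals1.

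The promoter windows of the named genes that were at least 2-fold lower in CKO neurons without than with Runx1 were searched for the core motif of Runx proteins. Windows of 300 bases, 250 before and 50 after the start site, came from RefSeq (GRCm38.p6) and were found for 5 of the 6 genes, 6 windows in all. The letters TGTGGT or TGCGGT, on either strand, were in 2 of the 6 windows, those of Ntng1 and Car12, and in 22.4% of all 32851 windows. Both matches lie on the strand opposite to the gene, 137 bases before the Ntng1 start and 229 before the Car12 start, and are shown because these are the windows with a match. Capitals mark the match, read along the gene's strand. Ntng1 is shown for 30 bases (chr3:110143592-110143621, minus strand) and Car12 for the 250 bases before its start (chr9:66713436-66713685, plus strand). The windows of Slc17a6, Cpne9 and Cdk14 held neither motif, and for Calb1 no window was used.
Ntng1: gggtagcggcgaACCGCAatcccgaagcat
Car12: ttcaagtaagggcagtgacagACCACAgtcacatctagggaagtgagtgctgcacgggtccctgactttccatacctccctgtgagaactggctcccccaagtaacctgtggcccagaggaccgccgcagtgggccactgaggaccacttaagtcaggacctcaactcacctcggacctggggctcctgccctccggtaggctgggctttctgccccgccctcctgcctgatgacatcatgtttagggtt

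The same genes are given by bins of Runx1. They were chosen by the split at 0.5, so the bins describe that split more finely and add no support to it. In CKO, Calb1 averaged 0.179 in the 66 neurons with 0 Runx1 UMIs and 0.505 in the 50 with some Runx1 under 0.5. Of the 50, 2 neurons (9.02 and 6.58) held 61.8% of the sum, and the other 48 averaged 0.201. Calb1 averaged 0.791, 1.77, 3.37 and 3.46 in neurons with Runx1 of 0.5 to 1 (33), 1 to 2 (80), 2 to 4 (131) and 4 or more (24). In control it averaged 0.184, 0.282, 0.389, 0.755 and 2.33 in 136, 75, 20, 7 and 4 neurons of the first 5 of these bins. The last 2 control bins hold too few cells to place. Ntng1 averaged 0.0122 and 0.0963 in the 2 lowest CKO bins and 1.63 in the highest, and Slc17a6 0.225, 0.325 and 1.59. The median depth was 47718 and 54262 UMIs in the 2 lowest CKO bins. In CKO, Rxrg averaged 0.669 and 0.742 in the 2 lowest bins and 0.196 in the highest, and B3gat1 1.84, 1.91 and 2.56. In the 5 control bins Rxrg averaged 0.474, 0.539, 0.770, 0.311 and 0.0525 and B3gat1 2.13, 1.96, 1.81, 1.54 and 1.22. B3gat1 thus ran upward with Runx1 in CKO. In control its values fell, but the 2 lowest come from the last 2 bins, with 7 and 4 neurons. Calb2, which the choice of cells used, also differed between the CKO bins, at 259 and 271 in the 2 lowest and 193 in the highest. In control Calb2 averaged 243 in the lowest bin and 167 and 189 in the last 2.

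Few of the CKO neurons without Runx1 had a clear level of Calb1, Ntng1 or Slc17a6. These 3 genes were chosen for their lower means in the 116 than in the 268 CKO neurons with Runx1. Counts between those pools therefore describe that choice by cell and add no support to it. A Calb1 level of 1 or more was found in 8 of 116 (6.90%, 3.02 to 13.1), against 11 of 211 in control (5.21%, 2.63 to 9.14) and 158 of 268 in CKO neurons with Runx1 (59.0%). The 5 highest neurons held 60.2% of the Calb1 sum of the 116, the highest at 9.02. For Ntng1 the counts were 1 of 116 in CKO without Runx1, 0 of 211 in control without Runx1 and 98 of 268 in CKO with Runx1, where 0 of 211 allows up to 1.73% by the exact interval. For Slc17a6 they were 12 of 116 in CKO without Runx1, 13 of 211 in control without Runx1 and 99 of 268 in CKO with Runx1. At least 2 of the 3 genes reached 1 in 3 of 116 CKO neurons without Runx1 (2.59%, 0.537 to 7.37), in 0 of 211 control neurons without Runx1 and in 126 of 268 CKO neurons with it. With every cell thinned to 10000 UMIs, a Calb1 UMI was seen in 18.1% of the 116 (11.6 to 26.3) and 13.3% of the 211 (9.002 to 18.6). The control stretches were at 27.9% and 9.52%, on either side of the CKO share. Unthinned, the shares were 31.9% of the 116 and 28.4% of the 211. In neurons with Dupd1 at 1 or more, which should lack Calb1, the thinned shares were 2.63% in CKO and 0 of 119 in control, where 3 counts would give 2.52%. The median depth of those cells before thinning was 27102 UMIs in CKO and 25326 in control.

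**Figure D5:**
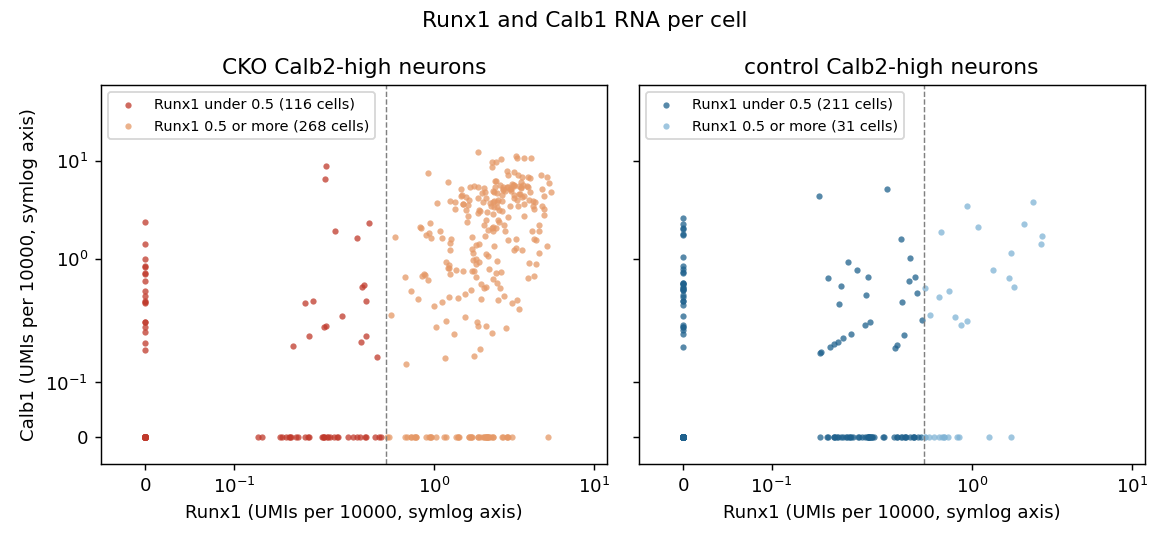
Runx1 (x axis) and Calb1 (y axis) per cell in UMIs per 10000, on symlog axes (linear under 0.2), for CKO Calb2-high neurons (left, 116 dark red and 268 orange) and control ones (right, 211 dark blue and 31 light blue), with the Runx1 limit of 0.5 as a dashed line. Left of the line most cells of both genotypes have 0 Calb1 UMIs, whereas CKO cells to its right reach 12.5.

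The share of Calb2-high neurons without Runx1 went up with Calb2 in CKO. It was 13.3% at Calb2 of 150 to 200 (14 of 105), 24.8% at 200 to 250 (31 of 125), 39.3% at 250 to 300 (42 of 107) and 61.7% at 300 or more (29 of 47, 46.4 to 75.5). In control it was 71.2% (37 of 52), 89.6% (69 of 77), 91.6% (76 of 83) and 96.7% (29 of 30). Just under the Calb2 limit, at 100 to 150, 5 of 89 CKO and 9 of 51 control neurons lay under the Runx1 limit. Calb1 over all neurons of these Calb2 bins averaged 2.85, 2.08, 1.38 and 0.457 in CKO and 0.385, 0.303, 0.198 and 0.294 in control.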

How the data were processed

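Neurons sorted for tdTomato from 3 CKO and 2 control cochlear samples went into 10x Genomics 3' libraries, per the labels. Cell Ranger, Seurat and the build mm10 are named in the submitters' processing notes. The authors deposited a table in natural log, ln(1 + 100000 × UMIs / cell total), as read from its values, for 14715 genes and 1954 cells, and a list of genotypes matched by position. Whole UMI counts were recovered from the deposited natural log values (100% whole within 0.01). Cell and gene filters are not given in the sources used here. No cell held under 10379 UMIs. No doublet caller was run.

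Members and gene lists were chosen with earlier results of these data known. Means are of UMIs per 10000, log2 values add 0.1 to each mean, and 2-fold counts use the means as they are. UMI rate ratios have exact conditional intervals and shares Clopper-Pearson intervals, both 95%. A fold count was checked on simulated data. Since cells could not be assigned to samples, no test was run. Python 3.11.15, numpy 2.4.6, pandas 2.3.3, scipy 1.17.1 and matplotlib 3.10.9 were used.

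Named genes were the 4 of the cell choice, the 12 highest and 12 lowest by log2 value among genes at a mean of 0.5, without predicted, sex-linked and mitochondrial genes, all subtype markers, up to 4 genes from every other list where they reached a mean of 0.2, the 5 each way of each subtype set and the 5 each way between CKO neurons without and with Runx1. The predicted genes 1700026D08Rik and Gm1821, the sex-linked Xist and Ddx3y, Btbd9, Crym and Tenm3 in the control comparison, and Elmo1, Kcnip4, Sv2b, Pcsk2 and Rbfox3 were named after their values were seen, as members of counts of 7 or fewer. Alternatives were other pseudocounts, floors and limits, pooled UMI sums, thinned cells, glia-poor cells and leaving out each stretch.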

Additional observations from a re-analysis of the deposited data

How the results depend on the processing

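The depth and the single pool per genotype limit these results to differences in size. No paired analysis was possible because cells could not be assigned to the numbered samples. The planned limit on all Schwann and satellite glia markers left 0 cells, so glia-poor neurons were redefined without S100b, Cryab and Glul after seeing the data. The 2-fold counts against control (4 higher and 3 lower) became 0 and 0 with a pseudocount of 1, 3 lower became 1 with a pseudocount of 0.1 in the fold or in glia-poor neurons and 0 at a floor of 1, and the counts were 719 and 1114 with no floor. Leaving out 1 stretch gave 4 to 9 higher and 2 to 6 lower, with 9 and 5 without stretch 5 and 6 lower without stretch 3. Against CKO neurons with Runx1 (2 higher and 7 lower), the higher count was 1 with a pseudocount of 1, a pseudocount of 0.1 in the fold, UMI sums or a Calb2 limit of 200, and 0 to 2 with 1 stretch left out (0 without stretch 1 or 4). The lower count was 1 with a pseudocount of 1, 12 at a Calb2 limit of 100, 3 at a floor of 1 and 7 to 8 with 1 stretch left out. The 2 counts were 5 and 11 in glia-poor neurons, 8 and 14 at a floor of 0.2 and 754 and 1117 with no floor. The type Ia set median (-0.10) was -0.0651 with a pseudocount of 1 and -0.15 to 0.0819 with 1 stretch left out, the type Ib set median (-0.07) was -0.0294 with a pseudocount of 1, -0.0288 in glia-poor neurons, -0.00818 in thinned cells and -0.14 to -0.0320 with 1 stretch left out, and the type Ic set median was -0.07 to -0.0018. The thinned Calb1 share (18.1%) was 31.9% unthinned, 6.03% with at least 2 UMIs required and 16.5% to 20.8% with 1 stretch left out. Of the 24 genes named by size, 8 changed sign in 1 of 14 settings each, Prx (0.05) and Scd1 (0.04) in glia-poor neurons, Pttg1 (-0.23) without stretch 3, and Nrsn1 (-0.01), Rpl37 (0.51), Plin2 (0.09), Cap1 (0.20) and Oaz1 (0.50) without stretch 5. The causes were not tested.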
